A study of Rattus norvegicus with 6 samples.

Results

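Integrin subunits were followed in rat bone marrow cells that were grown under bone-forming conditions, either untreated or exposed to pulsed ultrasound of low intensity (LIPUS), that is, brief bursts of sound used as a mechanical load. A list of 10 rat subunits was considered: the alpha chains Itga1, Itga5, Itga7, Itgal, Itgam and Itgav, and the beta chains Itgb1, Itgb2, Itgb5 and Itgb7. A probe was taken as a subunit's own when the RefSeq accession printed on the array, without its version, belonged to that subunit in a RefSeq gene table. By this rule 5 of the 10 subunits had a probe, out of 8899 genes with a symbol and a probe in the series. They were Itga1 (NM_030994), Itga7 (NM_030842, with 2 probes), Itgal (NM_001033998), Itgam (NM_012711) and Itgb1 (NM_017022, with 10 spots on every array). Itga5, Itgav, Itgb2, Itgb5 and Itgb7 were not analysed here. The partner chain of Itgal and Itgam, Itgb2, was therefore not followed, and neither was Itgav, the chain of the vitronectin receptors.

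The control group and the LIPUS group each held 3 samples of bone marrow cells from male rats aged 8 weeks, all in osteogenic culture and all collected on day 10. Total RNA of each sample was labelled with Cy3 and hybridised to an Agilent rat array of its own, in a single colour. The groups differ by label in the ultrasound alone, and the control cells were left untreated. No label says whether the 3 samples of a group came from separate animals or separate cultures, so the p-values measure only the spread between these samples, which may be technical.

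Integrins are receptors at the cell surface in which an alpha chain is paired with a beta chain. Outside the cell they bind matrix proteins such as collagen, laminin and fibronectin, or proteins on other cells. Inside the cell they connect through talin, kindlin and other adaptors to the actin cytoskeleton and to kinases of focal adhesions, and through this link they are known as sensors of mechanical load in bone cells. The alpha chain largely sets the ligand, and several alpha chains share the beta1 chain. Chains that pair with beta2 are restricted to leukocytes, which makes them markers of blood cells in a mixed marrow culture.

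Levels are given on the log2 scale relative to the array's own 75th percentile, so a level of 0 is the brightness at that percentile of the array's probes, and levels of different probes are not compared. Differences are LIPUS minus control on that scale, each with the standard error (SE) from limma, a linear model fitted to all 21847 tested genes and unnamed probes. A gene was called when limma's p-value, adjusted by the Benjamini-Hochberg method over all of them, was under 0.05. Between 53.5% and 61.9% of the probes of an array were above the background of its negative control spots, and the arrays correlated at 0.964 to 0.986 across genes. Of all tested genes and probes 6.63% were called, 2.89% as higher in LIPUS and 3.74% as lower. The smallest change among the called genes was 0.59 on the log2 scale, and 81.7% of all tested genes changed by 0.5 or less in either direction. The tilt of the scanned grid put control 1 and control 2 on a slide apart from the other 4 arrays, so control 3 was the only control array that shared a slide with the LIPUS arrays. The RNA came from whole cultures, so fewer cells of a type and less RNA per cell cannot be told apart.

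No integrin subunit passed the test. Of the 5 subunits with a probe, 4 were bright enough to be tested, and 0 of these 4 were called, beside 6.63% of all tested genes and probes (limma, adjusted p). Unadjusted, Itgam alone among the 4 was under a p of 0.05, as were 22.1% of all tested genes and probes. Itga1 and Itgb1 had the higher mean in LIPUS, and Itga7 and Itgam had the higher mean in control. The median of the 4 differences was 0.09, against 0.03 for all tested genes and probes. The groups did not overlap for 1 of the 4, Itga1, beside 27.2% of all tested genes and probes. In the value table deposited by the authors they did not overlap for 3 of the 4, beside 28.5% of all tested genes and probes.

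**Figure D1:**
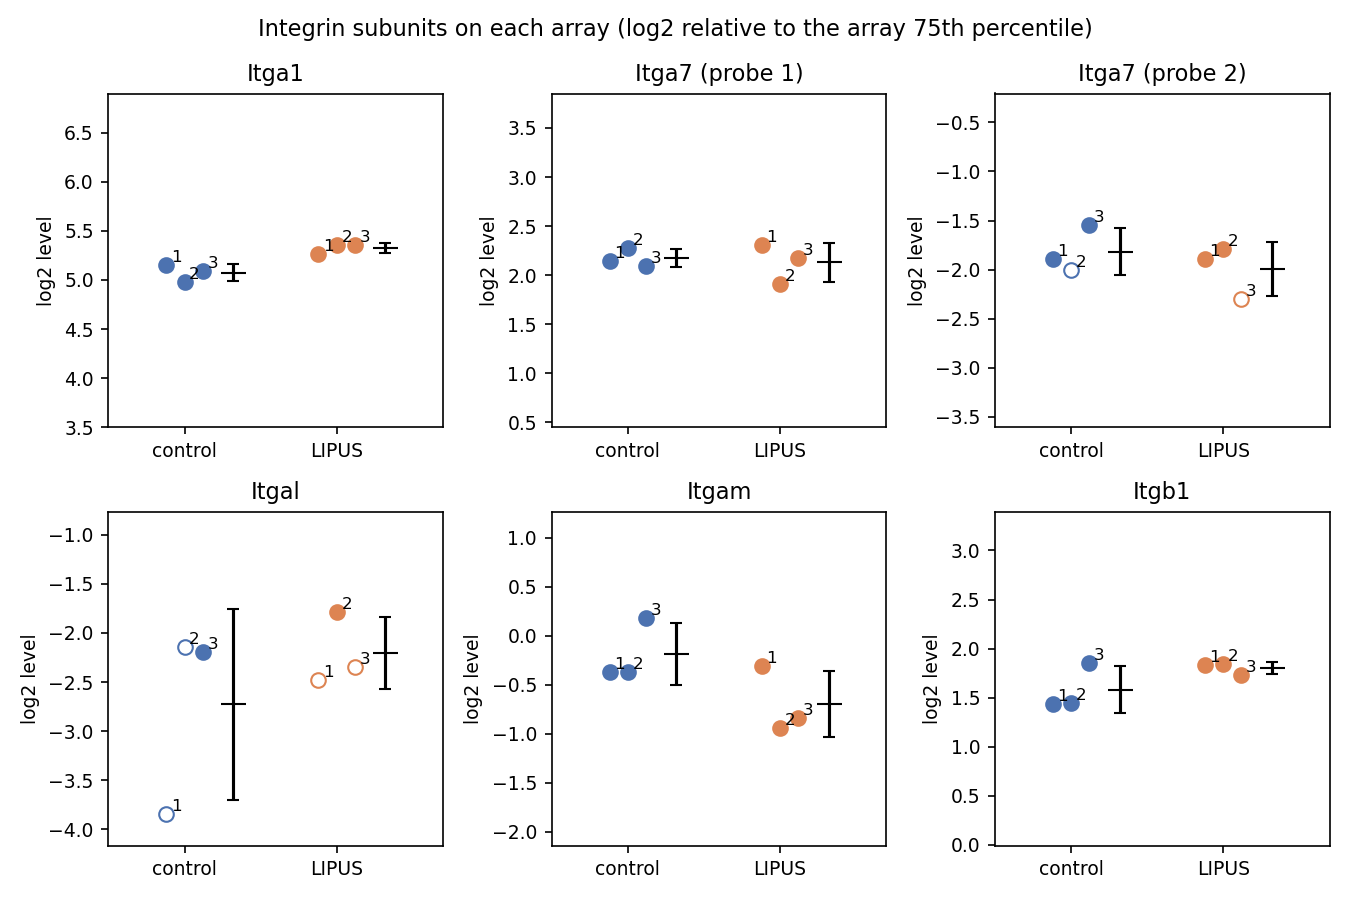
Level of each integrin probe on each of the 6 arrays (vertical axis, log2 relative to the array's 75th percentile; numbers are the array numbers in the labels). Filled points were above the background limit of their array and open points were not; the cross and bars at the side of each group give its mean ± SD (n = 3). Each panel spans the same number of log2 units around its own values. The groups are apart only for Itga1, and control 3 is the highest control array for Itgam, Itgb1 and the second Itga7 probe.

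Itga1 encodes alpha1, which pairs with beta1 and binds collagen and laminin. Its level was 5.15, 4.98 and 5.10 on control arrays 1, 2 and 3 and 5.27, 5.36 and 5.35 on LIPUS arrays 1, 2 and 3. All 3 LIPUS arrays lay above all 3 control arrays, and the arrays of a group lay close together. The control mean was 5.07 ± 0.0861 (SD, n = 3) and the LIPUS mean 5.33 ± 0.0513 (SD, n = 3). The difference of 0.25 ± 0.15 (SE), 1.19-fold with a 95% interval of 0.940 to 1.51, did not pass the test (limma, adjusted p = 0.370). The raw brightness of the spot, before any scaling, read 32901, 23700 and 35583 in control against 32226, 28450 and 30998 in LIPUS, where the groups overlapped. Raw brightness also carries the overall brightness of each array, with medians of 218, 183 and 224 in control against 194, 163 and 161 in LIPUS. The groups were apart on the values scaled to the 75th percentile and not on the raw ones. Scaling to the array's spike-in spots in place of the 75th percentile gave a difference of −0.10. That scaling set the median of all genes at −0.32. In the value table deposited by the authors the level was 5.29, 5.19 and 5.34 in control against 5.50, 5.58 and 5.62 in LIPUS. These values did not overlap either, as was the case for 28.5% of all tested genes and probes in that table, and the difference of 0.30 did not pass the test (limma, adjusted p = 0.286).

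Itgb1 encodes beta1, the common partner of the collagen, laminin and fibronectin receptors and the partner of alpha1 and alpha7. Its level was 1.44, 1.45 and 1.85 on control arrays 1, 2 and 3 and 1.83, 1.84 and 1.73 on LIPUS arrays 1, 2 and 3. Control 3 was the highest of all 6 arrays, so the groups overlapped, while control 1 and control 2 lay below every LIPUS array. The control mean was 1.58 ± 0.237 (SD, n = 3) and the LIPUS mean 1.80 ± 0.0628 (SD, n = 3). The difference of 0.22 ± 0.17 (SE), 1.17-fold with a 95% interval of 0.892 to 1.53, did not pass the test (limma, adjusted p = 0.487).

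The direction of the Itgb1 difference depended on the control arrays compared and on the scaling. With the inferred slide as a fixed block, which compares the LIPUS arrays with control 3 alone, the difference was −0.051 ± 0.18 (SE; limma, adjusted p = 0.923). Without control 3 it was 0.36 (limma, adjusted p = 0.153). Scaling to the spike-in spots gave −0.13. Whether the slide or the sample set control 3 apart was not tested. The deposited value table held 1.64, 1.56 and 1.96 in control against 1.94, 2.02 and 1.97 in LIPUS, a difference of 0.26 (limma, adjusted p = 0.424). In that table, too, control 3 lay above control 1 and control 2 and within the range of the LIPUS arrays.

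The Itgb1 probe was spotted 10 times on each array, which gives the error of a single spot. The SD over the 10 spots was 0.309, 0.293 and 0.238 on control arrays 1, 2 and 3 and 0.299, 0.267 and 0.138 on LIPUS arrays 1, 2 and 3. Averaged over the arrays it was 0.257, near the median of 0.268 over the 168 probes with 10 spots that were above background. On control 1 the spots ran from 1.07 to 1.91, and on control 3 from 1.38 to 2.14. A spot of control 1 could therefore lie above a spot of control 3, while the means over 10 spots differed between these arrays. Each of the 10 spot positions had a higher mean on the LIPUS arrays than on the control arrays, by 0.05 to 0.57 with a median of 0.21. Against control 3 alone the LIPUS mean was higher at 2 positions and lower at 8. The 10 spots measure the same RNA again and are not replicates of the treatment.

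**Figure D2:**
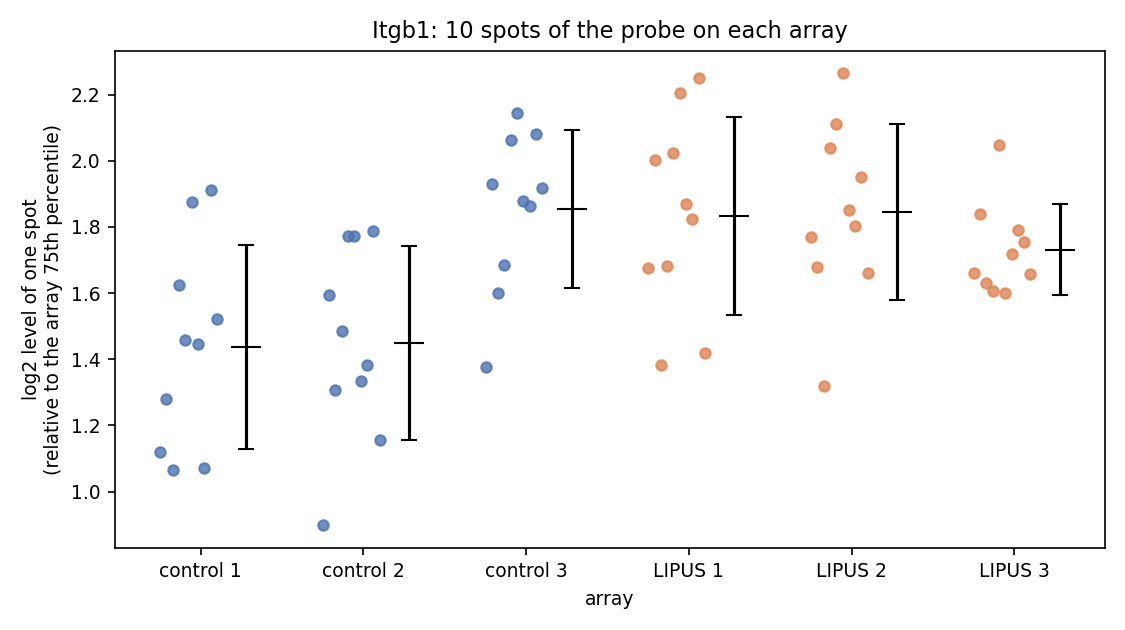
Level of each of the 10 Itgb1 spots on each of the 6 arrays (vertical axis, log2 relative to the array's 75th percentile; horizontal axis, array). Points are single spots, and the cross and bars give the mean ± SD over the 10 spots of an array. Control 1 and control 2 have means of 1.44 and 1.45, and the other 4 arrays lie between 1.73 and 1.85.

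Itga7 encodes alpha7, which pairs with beta1 as a laminin receptor best known from muscle. Its brighter probe was at 2.15, 2.28 and 2.10 on control arrays 1, 2 and 3 and at 2.30, 1.91 and 2.18 on LIPUS arrays 1, 2 and 3. The LIPUS arrays included both the highest and the lowest value, so the control range lay inside the LIPUS range. The control mean was 2.17 ± 0.0932 (SD, n = 3) and the LIPUS mean 2.13 ± 0.202 (SD, n = 3). The difference was −0.04 ± 0.17 (SE; limma, adjusted p = 0.912), with a 95% interval of −0.42 to 0.34. It was 0.0083 without control 2 and 0.067 without LIPUS 2.

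The deposited value table showed another picture for Itga7. There the same probe was at 2.287, 2.325 and 1.962 in control against 2.417, 2.486 and 2.333 in LIPUS. All LIPUS arrays lay above all control arrays, and 28.5% of all tested genes and probes had no overlap in that table either. The difference of 0.22 ± 0.16 (SE) did not pass the test (limma, adjusted p = 0.487). LIPUS 2, the lowest array in the spot values, was the highest in the table. Its spot brightness was 2591, against 3399 to 4390 on the other 5 arrays. The second Itga7 probe was dim, at −1.89, −2.01 and −1.55 in control against −1.89, −1.79 and −2.30 in LIPUS, and was above background on 2 arrays of each group. Its difference was −0.18 ± 0.20 (SE; limma with every probe tested on its own, adjusted p = 0.648). In the value table it was at −3.23, −2.44 and −3.26 in control against −1.60, −1.94 and −1.98 in LIPUS, a difference of 1.13 ± 0.27 (SE; limma, adjusted p = 0.0793) in the opposite direction. For both Itga7 probes, then, the sign of the difference depended on which of the deposited values were used, and none of these differences passed the test.

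Itgam encodes alphaM, also known as CD11b, which pairs with beta2 on monocytes, macrophages and neutrophils and binds the complement fragment iC3b, fibrinogen and ICAM1. Its level was −0.37, −0.37 and 0.18 on control arrays 1, 2 and 3 and −0.31, −0.94 and −0.84 on LIPUS arrays 1, 2 and 3. LIPUS 1 lay just above control 1 and control 2, so the groups overlapped, while LIPUS 2 and LIPUS 3 lay below all control arrays. The control mean was −0.19 ± 0.316 (SD, n = 3) and the LIPUS mean −0.69 ± 0.338 (SD, n = 3). The difference of −0.51 ± 0.23 (SE), a fold of 0.703 with a 95% interval of 0.495 to 0.999, did not pass the test (limma, adjusted p = 0.225). The spot read 673, 528 and 1120 in brightness on the control arrays against 613, 310 and 355 on the LIPUS arrays, above background on all 6 arrays.

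The sign of the Itgam difference was negative in the fit and in all 22 alternative settings, and its size varied. In the deposited value table the level was −0.09, −0.20 and 0.27 in control against −0.66, −0.57 and −0.76 in LIPUS. LIPUS 1 lay with the other LIPUS arrays there. The groups did not overlap, as for 28.5% of all tested genes and probes in that table. The difference was −0.65 ± 0.18 (SE), which did not pass the test (limma, adjusted p = 0.110). Against control 3 alone, with the slide as a fixed block, it was −0.87 ± 0.27 (SE; limma, adjusted p = 0.189). Without control 3 it was −0.33, and without LIPUS 1 it was −0.70, neither of which was called. Scaling to the spike-in spots gave −0.86 ± 0.26 (SE; limma, adjusted p = 0.0205), the only setting in which Itgam was called. Under that scaling 17% of all tested genes and probes were called, and the median over all of them was −0.32.

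Macrophages and monocytes, which carry alphaM, were followed by a list of 27 marker genes. Of all tested genes and probes 3.74% were called lower and 2.89% higher. Of the 20 markers that were tested, 9 fell, 1 rose and 10 did not pass the test. Their median difference was −0.60, against 0.03 for all tested genes and probes. All of the 6 that reached the scanner limit are among the 10, and over the 14 genes under the limit the median was −1.05. With the slide as a fixed block 7 of the 20 fell and 0 rose, beside 1.29% of all tested genes and probes called. The mean level over the list ran from 3.50 to 3.56 on the control arrays and from 2.71 to 2.92 on the LIPUS arrays. Among those that fell were the lectin Clec10a by 2.99, the Fc receptors Fcgr2b and Fcgr3a by 2.43 and 1.58, and the calcium-binding protein Aif1 by 1.54 (limma, adjusted p from 0.000220 to 0.00105). Adgre1 (F4/80) fell by 1.32 and Csf1r, the receptor for macrophage colony-stimulating factor, by 0.98 (limma, adjusted p = 0.00218 and 0.0224), the latter call being lost without control 1 or without any 1 of the LIPUS arrays (highest adjusted p 0.0833). The 1 called as higher was Mpeg1 (limma, adjusted p = 0.0308), which was kept through the LIPUS arrays alone and was not above background on any control array, so its difference has no exact size. Its call was lost without any 1 array other than control 3 (highest adjusted p 0.109), and in the deposited value table it differed by 0.029 (limma, adjusted p = 0.974). Adgre1, Csf1r, Mpeg1, Cd68 and Spi1 were named after their values were seen. Cd68 saturated the scanner on all control arrays, so its spots bound a fall without measuring it, and in the deposited value table it differed by −0.95 (limma, adjusted p = 0.0231). Spi1, the transcription factor of the myeloid lineage, differed by 0.09 (limma, adjusted p = 0.915). The part of these markers in the Itgam difference was not tested.

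Itgal encodes alphaL, the alpha chain of LFA-1 on lymphocytes and other leukocytes, which binds ICAMs. Its level was −3.85, −2.15 and −2.19 on control arrays 1, 2 and 3 and −2.48, −1.79 and −2.35 on LIPUS arrays 1, 2 and 3. The probe was above background only on control 3 and LIPUS 2, too few arrays for a test. Its spot read 64 to 186 in brightness in control against 80 to 144 in LIPUS, so the values give no order between the groups. The 7 tested genes of a T and NK cell list of 14 included 0 called genes (limma), beside 6.63% of all tested genes and probes. Unadjusted, 4 of the 7 were under a p of 0.05 (limma), beside 22.1% of all tested genes and probes. Their median difference was 0.22. Of the 7, 4 lay above 0 and 3 below 0. Cd4, which macrophages of the rat also carry, differed by −0.91 (limma, adjusted p = 0.0504). Zap70 differed by −0.44, and Nkg7 and Cd2 by 0.52 and 0.60 (limma, adjusted p = 0.185, 0.134 and 0.195). Of the neutrophil list 2 of 11 genes were tested and 1 rose, S100a8 by 0.99 (limma, adjusted p = 0.0209), a call lost without control 1, LIPUS 1 or LIPUS 2, with the highest adjusted p at 0.0895, and with the slide as a fixed block (0.159). Of the B cell list 1 of 8 was tested and rose, the adaptor Blnk by 1.08 (limma, adjusted p = 0.00483), a call lost with the slide as a fixed block (adjusted p = 0.0784).

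Beyond the 10 subunits, 17 further integrin genes were looked up and 5 had a probe: Itgad, Itgae, Itgb3, Itgb4 and Itgb6. Itgad was above background on control 1 alone, and Itgae, Itgb3 and Itgb6 on 1 control and 1 LIPUS array each. Only Itgb4, the laminin-binding beta chain of hemidesmosomes, was tested. Its level was 0.14, −0.20 and 0.24 on control arrays 1, 2 and 3 and −0.93, 0.05 and −0.36 on LIPUS arrays 1, 2 and 3. LIPUS 2 lay among the control arrays, and the difference of −0.47 ± 0.25 (SE) did not pass the test (limma, adjusted p = 0.303). The deposited value table gave 0.11 in the opposite direction (limma, adjusted p = 0.856), and scaling to the spike-in spots gave −0.82 (limma, adjusted p = 0.0191).

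**Figure D3:**
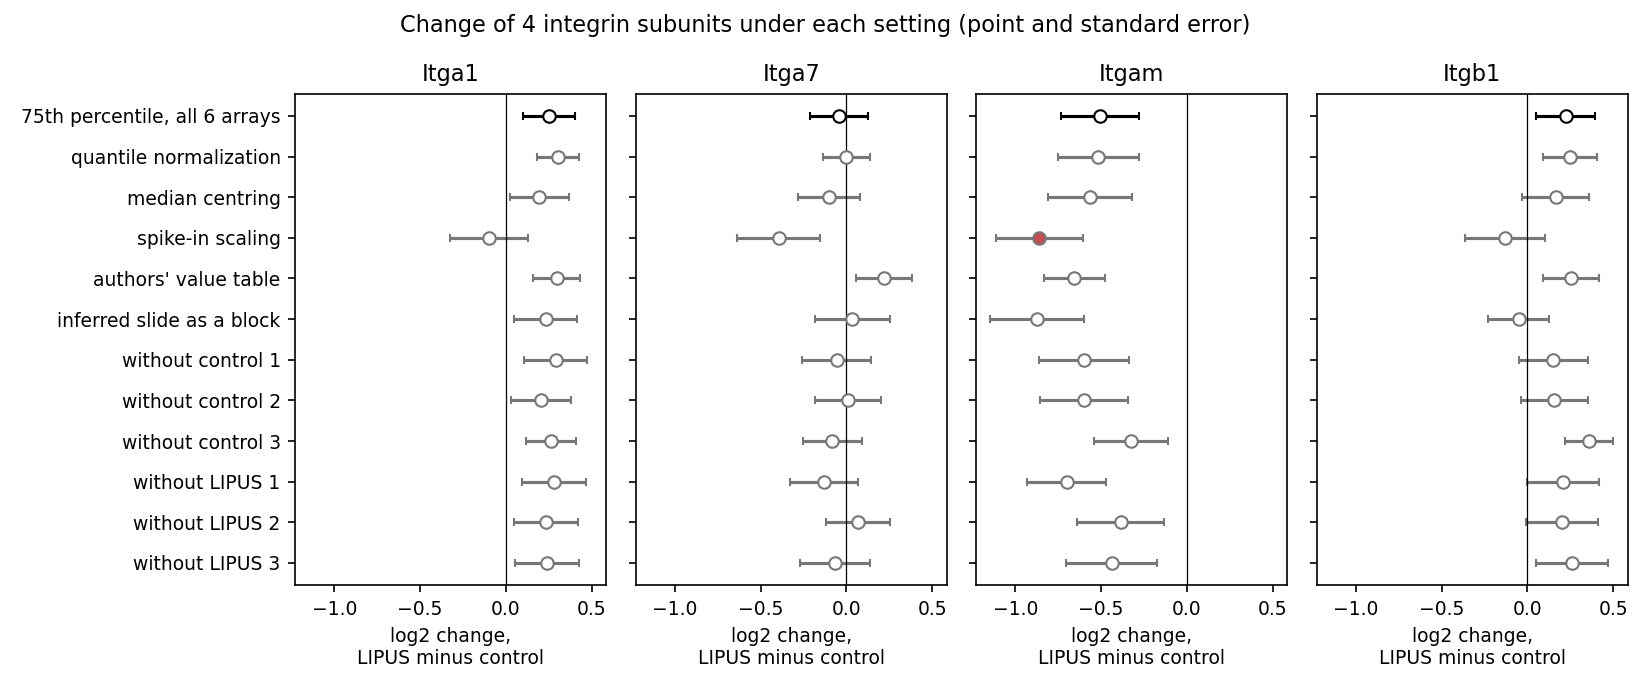
Difference between LIPUS and control (horizontal axis, log2) for the 4 tested integrin subunits under 12 settings, from the 75th percentile scaling of all 6 arrays at the top to the fits without 1 array each at the bottom. Points are limma's estimates and bars are ± SE; a filled red point was called at an adjusted p under 0.05. Itgam lies below 0 under every setting shown and is called in these settings under spike-in scaling only, and Itgb1 lies below 0 under spike-in scaling and with the inferred slide as a block.

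Among the matrix proteins that integrins bind, some passed the test. Of 38 listed matrix ligands 15 were tested, and 4 rose, 1 fell and 10 did not pass the test. That was 26.7% called higher and 6.67% called lower, beside 2.89% and 3.74% of all tested genes and probes. Thbs1, the matrix glycoprotein thrombospondin-1, was at −0.62, −0.61 and −1.60 in control against 0.87, 0.98 and 0.68 in LIPUS. Every LIPUS array lay above every control array, and it rose by 1.78 ± 0.26 (SE; limma, adjusted p = 0.00456). Dmp1, an acidic bone matrix protein with an integrin-binding RGD sequence, was at 2.92, 2.94 and 2.81 in control against 4.39, 4.55 and 4.49 in LIPUS. It rose by 1.59 ± 0.15 (SE; limma, adjusted p = 0.000784), and both calls held with the slide as a fixed block (adjusted p = 0.0153 and 0.0260). The collagen chain gene Col5a1 rose by 1.05 ± 0.18 (SE; limma, adjusted p = 0.0104), a call that was lost without control 1 (adjusted p = 0.0508), and its second probe rose by 1.04 (adjusted p = 0.0170).

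Mepe, named after its values were seen, was the fourth that rose (limma, adjusted p = 0.0259). Its spot saturated the scanner on all LIPUS arrays, where its level was at least 1.73-fold higher. In the deposited value table it rose by 2.89 (limma, adjusted p = 0.00902). The call on the spot values was lost without control 1 or without any 1 of the LIPUS arrays (highest adjusted p 0.103). The fibrillin gene Fbn1, whose product also has an RGD sequence, fell by 1.33 ± 0.19 (SE; limma, adjusted p = 0.00409), and its second probe differed by −0.59 (limma, adjusted p = 0.116). Fn1 (fibronectin) and Spp1 (osteopontin), also named after their values were seen, saturated the scanner on each of the 6 arrays, so the spot values hold no difference for them. In the deposited value table Fn1 differed by −0.37 (limma, adjusted p = 0.437) and Spp1 rose by 2.07 (limma, adjusted p = 0.0103). The median over the list was 0.28, and −0.07 under spike-in scaling, with 5 of the 15 genes at the scanner limit on some or all arrays, and over the 10 genes under the limit it was 0.49. With the slide as a fixed block 2 of the 15 rose and 0 fell, beside 1.29% of all tested genes and probes called.

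Ligands on other cells and in plasma showed more falls than rises. Of 19 listed 12 were tested, 5 fell, 1 rose and 6 did not pass the test. That was 41.7% called lower and 8.33% called higher, beside 3.74% and 2.89% of all tested genes and probes. Cdh1 (E-cadherin), a ligand of the alphaE chain, was at 1.13, 0.83 and 0.48 in control against −1.43, −2.57 and −1.25 in LIPUS. All LIPUS arrays were lower than all control arrays, and Cdh1 fell by 2.57 ± 0.33 (SE) (limma, adjusted p = 0.00220). Only 2 of the LIPUS arrays were above background, so the size of the Cdh1 fall is not exact. In the deposited value table Cdh1 differed by −3.62 (limma, adjusted p = 0.00834). Vcam1, a ligand of alpha4 integrins, saturated the scanner on every control array, and its level in LIPUS was at least 2.11-fold lower (limma, adjusted p = 0.0106). Icam2, a ligand of alphaL carried by endothelial cells and leukocytes, fell by 1.05 ± 0.19 (SE; limma, adjusted p = 0.0127), and its call was lost without LIPUS 1 (adjusted p = 0.0555).

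C3, the complement protein whose fragment alphaM binds, and Cd47, an integrin-associated protein, also fell, by 0.95 and 0.81 (limma, adjusted p = 0.0166 and 0.0202). Both were named after their values were seen. The call of C3 was lost without control 1, LIPUS 1 or LIPUS 2 (highest adjusted p 0.0740), and that of Cd47 without any 1 array other than control 3 (highest adjusted p 0.0840). A second Cd47 probe differed by −0.42 (limma, adjusted p = 0.204). The junction protein Jam2 rose by 1.12 ± 0.22 (SE; limma, adjusted p = 0.0161), a call that was lost without control 1, LIPUS 2 or LIPUS 3 (highest adjusted p 0.0633), and its second probe rose by 0.68 (adjusted p = 0.0396). With the slide as a fixed block Jam2 and Icam2 were still called (adjusted p = 0.0451 and 0.0360), and the other 10 genes of the list were not.

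Of an endothelial list, to which Icam2 also belongs, 4 of 6 tested genes fell, beside 3.74% of all tested genes and probes. Among them was the adhesion molecule Esam, lower by 1.80 (limma, adjusted p = 0.00187). With the slide as a fixed block 1 fell, Icam2, beside 1.29% of all tested genes and probes called. The mean level of that list ran from −0.20 to −0.08 on the control arrays and from −1.07 to −0.96 on the LIPUS arrays. Its part in the Icam2 difference was not tested.

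Inside the cell, most genes of integrin activation and focal adhesions did not pass the test. Of 48 listed 23 were tested, 3 fell, 1 rose and 19 did not pass, with a median of 0.09. That was 13% called lower and 4.35% called higher, beside 3.74% and 2.89% of all tested genes and probes. Unadjusted, 10 of the 23 were under a p of 0.05 (limma), beside 22.1% of all tested genes and probes. Ptk2 (FAK) and Ilk, both at the core of focal adhesions, differed by 0.11 and 0.46 (limma, adjusted p = 0.731 and 0.111). Both were named after their values were seen, and Ptk2 was read from the brightest of its 4 kept probes.

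Lyn, a Src-family kinase of blood cells, fell by 0.82 ± 0.16 (SE; limma, adjusted p = 0.0156). Its call was lost without control 1, control 2, LIPUS 2 or LIPUS 3 (highest adjusted p 0.0700), and its second probe differed by −0.53 (adjusted p = 0.257). Ptk2b (Pyk2), the relative of FAK found in blood cells and osteoclasts, fell by 0.63 ± 0.16 (SE; limma, adjusted p = 0.0459), a call that was lost without any 1 of the 6 arrays (adjusted p from 0.0586 to 0.145). Fyn, another Src-family kinase, rose by 1.04 ± 0.23 (SE; limma, adjusted p = 0.0297), and its call was lost without any 1 array other than control 3 (highest adjusted p 0.113). Its second probe rose by 1.02 (limma, adjusted p = 0.00483). With the slide as a fixed block limma called 0 of the 23, beside 1.29% of all tested genes and probes (6 of the 23 at an unadjusted p under 0.05). Of the macrophage markers given beside Itgam 9 of 20 fell as well, and their part in the difference of Lyn was not tested.

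**Figure D4:**
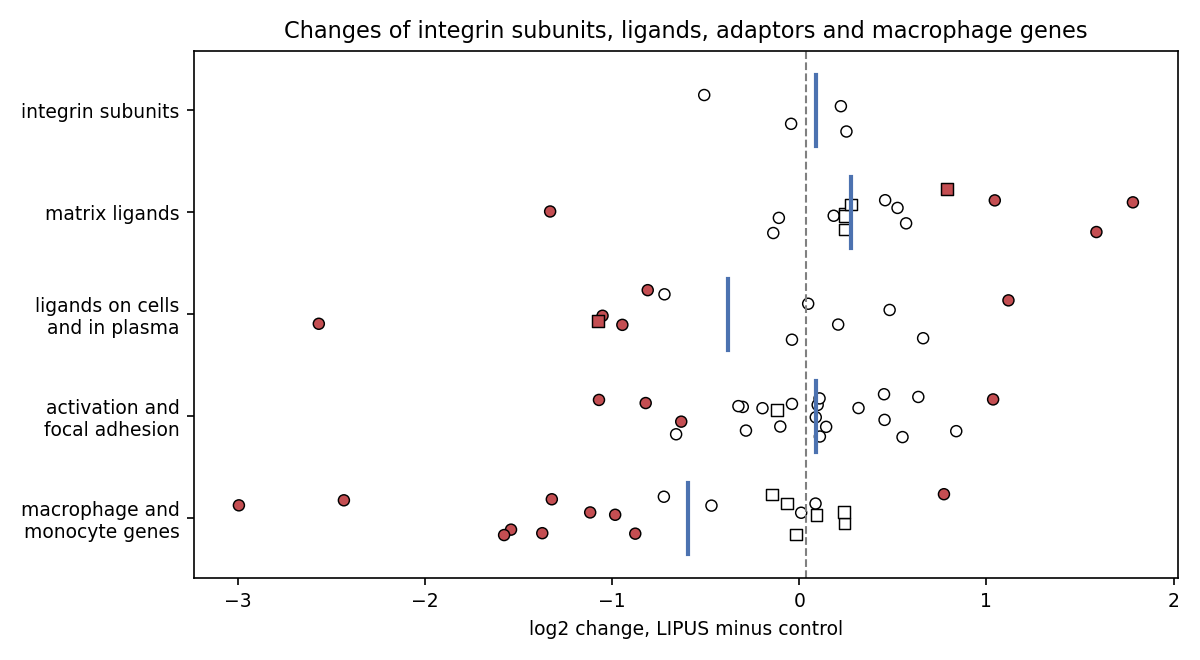
Difference between LIPUS and control (horizontal axis, log2) of every tested gene of 5 lists, 1 list per line; points are spread vertically for legibility. Filled red points were called at a limma adjusted p under 0.05, squares reached the scanner limit on at least 1 array, blue bars are list medians and the dashed line is the median of all tested genes and probes at 0.03. The 4 integrin subunits lie between −0.51 and 0.25, and called genes appear in the other 4 lists.

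Integrins that contain alphaV release TGF-beta from its latent form, and the genes of that system were read as a last group. Of 11 listed 8 were tested and limma called 0, beside 6.63% of all tested genes and probes. Unadjusted, 1 of the 8 was under a p of 0.05 (limma), beside 22.1% of all tested genes and probes. The median difference of the 8 was 0.03. Tgfb1 had the smallest p among them, with a difference of 0.58 ± 0.22 (SE; limma, adjusted p = 0.163), and its control 3 array lay among the LIPUS arrays. Tgfb2, Tgfb3 and Ltbp2 differed by 0.28, −0.39 and −0.25 (limma, adjusted p from 0.338 to 0.447).

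The other cell types of a marrow culture were read by their marker lists. Of an osteoblast list of 16, 13 were tested, 6 rose and 0 fell. That was 46.2% called higher, beside 2.89% of all tested genes and probes. Dmp1 and Mepe, which rose, are also among the matrix ligands given above, so these lists are not independent. With the slide as a fixed block 3 of the 13 were still called as higher, beside 1.29% of all tested genes and probes called. The osteoblast list's mean level ran from 3.70 to 3.77 on the control arrays and from 4.46 to 4.62 on the LIPUS arrays. Of the muscle and contractile list, read because alpha7 is a muscle chain, 4 of 11 were tested, 3 of them under the scanner limit. Limma called 0 of these 4 and 0 of the 3 tested osteoclast genes, beside 6.63% of all tested genes and probes. Unadjusted, 0 of either list were under a p of 0.05 (limma), beside 22.1% of all tested genes and probes. With so few genes these counts cannot be told from those shares. Of the mast cell list 8 of 10 were tested and 1 fell, Cma1 by 1.18 (limma, adjusted p = 0.0055). Of the platelet list 4 of 9 were tested. Pf4 fell by 1.77 and Gp1bb rose by 0.88 (limma, adjusted p = 0.000784 and 0.0267). Of all tested genes and probes 3.74% were called lower and 2.89% higher. The call of Gp1bb was lost without control 1 or without any 1 of the LIPUS arrays (highest adjusted p 0.0988). With the slide as a fixed block the calls of Cma1 and Gp1bb were lost, and that of Pf4 held. The part of these cell types in the integrin values was not tested.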

How the data were processed

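Per the file headers, the spot tables deposited by the authors give spot and local background brightness as intensity, in whole numbers up to a scanner limit of 65535 and without normalization. They also hold, as deposited, the saturated share of each spot's pixels in percent, and its position and flag as a score. The value table deposited by the authors was read as log2 values: its 75th percentile was 0 on each array, its column medians were between −2.83 and −2.37, and it correlated at 0.956 to 0.977 with the spot values of the same arrays. How it was made, and the scanner used, is not given in the sources used here.

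Spot medians were corrected with normexp (offset 50, limma 3.58.1, R 4.3.3), put on the log2 scale and averaged per probe, and the 75th percentile of the array was subtracted. A probe was kept when it exceeded, on at least 3 of the 6 arrays, the 95th percentile of the array's 153 negative control spots, which left 23260 of 41012 probes. Names came from a RefSeq table (assembly GRCr8, names only), in which 10687 of 11138 curated accessions were found, and a gene was read from its probe of highest mean. LIPUS was compared with control by lmFit and eBayes (two-sided, group only). Median spot brightness was 161 to 224 per array, and the number of arrays limits the precision. On data simulated for this comparison over 21847 genes, the fit recovered 42 of 100 genes changed by 1 and 92 of 100 changed by 2 on the log2 scale.

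The subunits, the lists and the tests were chosen with earlier results of these data known. Named are all integrin subunits and, of each list, up to 4 tested genes with the smallest unadjusted p; genes named otherwise are marked as such. A gene that the rule also names is not reported here. Slides were inferred from grid tilt in the scan. Alternatives were other background corrections, scalings and filters, the value table, the slide or the replicate number as a block, trend and robust fitting, and leaving out each array. The list counts under alternatives and the value table's single probes were added after seeing the data. Python 3.11.15 with matplotlib 3.10.9 drew the plots, and jsonlite 2.0.0 read the labels.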

Additional observations from a re-analysis of the deposited data

How the results depend on the processing

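Over 22 alternatives each, Itga1 kept its direction in 21, Itga7 in 17, Itgam in 22, Itgb1 in 19 and Itgb4 in 21. The exceptions were −0.10 (Itga1) and −0.13 (Itgb1) under spike-in scaling; 0.22 (Itga7) and 0.11 (Itgb4) in the value table, where the probes of Itga7 tested on their own gave 0.22 and 1.13; and 0.035 (Itga7) and −0.051 (Itgb1), both with the slide as a fixed block and within slide 2. For Itga7, leaving out 1 array gave −0.13 to 0.067, above 0 without control 2 (0.0083) and without LIPUS 2. Of the 4 tested subunits of the list of 10, 1 was called under spike-in scaling (Itgam) and 0 under the other alternatives. Itgb4, outside that list, was likewise called under spike-in scaling only (limma, adjusted p = 0.0191). The 1449 genes and probes called became 699 with plain background subtraction, 3719 with spike-in scaling (197 higher, 3522 lower), 655 without a filter on dim probes, 805 in the value table, 282 with the slide as a fixed block, 2348 with trend and robust fitting, and 642 to 2168 when 1 array was left out, the highest without control 3. Within slide 2, with 1 control array, limma called 0 (3339 at an unadjusted p under 0.05). Centring on the median gave 472 higher and 990 lower. Same-numbered control and LIPUS arrays did not deviate together (correlations 0.00107, 0.00948 and −0.0124), and a replicate block gave 1175 calls and 0 subunits. The causes were not tested. The signal of Itgal, of the second Itga7 probe and of 4 further integrin chains was too near background to order the groups, and 3 arrays against 3 left a median SE of 0.19.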
